A study of Mus musculus with 8 samples.

Results

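The region described here is a 16-Mb segment of chromosome 16, from 20 to 36 Mb of the mouse assembly mm9, divided into 1600 regions of 10 kb. These are 1600 of the 265500 such regions of the genome, and 8232 others make up the rest of chromosome 16. The segment was picked on measured values, because all 4 histone marks of the study had a smaller share of their peaks there in the resistant tumors. The difference between the lines over the segment is therefore a description and was not tested.

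Chromatin came from isografts of Lewis lung carcinoma, a transplantable mouse lung tumor line, grown under the skin of young adult female C57BL/6J mice. LLC-NR is the line labelled drug sensitive, and LLC-R was derived from LLC by repeated rounds of growth in mice under VEGF-Trap, a soluble decoy receptor that binds VEGF, and is labelled drug resistant. After digestion with micrococcal nuclease, nucleosomes carrying 1 of 4 marks, H3K36me3, H3K27me3, H3K9ac or H3K4me3, were precipitated and their DNA was sequenced. Each line and mark had 1 library, 8 in all, so there were no replicates and the differences between LLC-NR and LLC-R have no replicate check. Treatment of the sampled mice with VEGF-Trap, and the number of tumors behind each library, are not given in the labels. LLC-R is 1 selected line, and both kinds of isograft contain host cells such as leukocytes, vessel cells and fibroblasts.

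H3K4me3 marks nucleosomes around the start sites of genes, and H3K9ac marks active promoters and enhancers. H3K27me3 is laid down by Polycomb complexes over silent genes, and H3K36me3 is laid down over the bodies of transcribed genes. Marks with such different places in the genome normally differ from each other along a chromosome, and nearby genes of unrelated function share a segment only by position. The deposited files list peaks, each 147 bp wide, the length of DNA on 1 nucleosome. A peak was counted in a region when its midpoint was inside. The number of peaks was divided by all peaks of the same library, and the log2 ratio of this share in LLC-R over that in LLC-NR is called the share ratio. Intervals of share ratios are 95% counting intervals. Those of shares are exact Clopper-Pearson intervals. Both cover counting error only. The libraries held from 5660458 to 9101721 peaks. They were close in number for H3K4me3, with 5678337 peaks in LLC-NR against 5660458 in LLC-R. The H3K27me3 and H3K36me3 libraries of LLC-R held more peaks than those of LLC-NR. For H3K9ac the library of LLC-R held fewer, with 7853593 peaks against 8547101 in LLC-NR.

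The promoters of carcinoma marker genes did not stand apart from those of host cell genes in these libraries. Over the promoters of 5 keratin and epithelial adhesion genes, H3K4me3 numbered from 4 to 6 peaks in each line. Over 7 promoters of leukocyte, endothelial and fibroblast genes, it numbered from 2 to 7 peaks in LLC-NR and from 1 to 6 in LLC-R. The part of host cells in the results was not tested.

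Positions of peaks are shown first for 4 promoters in the segment, because they show where H3K4me3 peaks lie at the level of nucleosomes. They were chosen after their values were seen. Ropn1, which encodes a protein of the sperm flagellum, and Mfi2, which encodes melanotransferrin, had the largest falls in peaks over the 3 promoter marks. Cldn1 encodes claudin-1 of epithelial tight junctions, and Lmln encodes a leishmanolysin-like metallopeptidase, whose promoter held more peaks in LLC-R. Each sequence is the 300 bases upstream of the TSS in NCBIM37, the same assembly as mm9, written 5′ to 3′ on the strand of the gene and free of annotated exons. Capitals mark bases inside an H3K4me3 peak of the line named. The windows are chr16:34649707-34650006 (plus strand) for Ropn1, chr16:31878596-31878895 (plus strand) for Mfi2, chr16:26371928-26372227 (minus strand) for Cldn1 and chr16:33062307-33062606 (plus strand) for Lmln.
Ropn1 LLC-NR: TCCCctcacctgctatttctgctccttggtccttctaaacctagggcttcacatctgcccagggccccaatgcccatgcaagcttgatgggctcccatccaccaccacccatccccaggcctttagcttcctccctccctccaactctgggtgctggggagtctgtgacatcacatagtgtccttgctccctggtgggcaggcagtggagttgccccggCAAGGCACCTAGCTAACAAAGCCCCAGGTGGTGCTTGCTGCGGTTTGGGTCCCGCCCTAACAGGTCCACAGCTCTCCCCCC
Ropn1 LLC-R: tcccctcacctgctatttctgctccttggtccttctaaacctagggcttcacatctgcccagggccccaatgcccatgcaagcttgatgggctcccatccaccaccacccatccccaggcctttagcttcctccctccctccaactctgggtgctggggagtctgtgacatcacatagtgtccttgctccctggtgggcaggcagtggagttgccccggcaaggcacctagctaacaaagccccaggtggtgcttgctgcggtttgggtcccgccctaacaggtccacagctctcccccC
Mfi2 LLC-NR: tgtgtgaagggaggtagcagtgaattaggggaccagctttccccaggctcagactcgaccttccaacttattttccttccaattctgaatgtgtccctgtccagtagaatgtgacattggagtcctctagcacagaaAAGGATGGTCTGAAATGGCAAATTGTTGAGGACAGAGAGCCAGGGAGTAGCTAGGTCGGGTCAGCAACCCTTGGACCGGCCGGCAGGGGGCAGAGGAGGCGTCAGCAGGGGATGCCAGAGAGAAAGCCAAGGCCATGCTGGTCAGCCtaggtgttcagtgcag
Mfi2 LLC-R: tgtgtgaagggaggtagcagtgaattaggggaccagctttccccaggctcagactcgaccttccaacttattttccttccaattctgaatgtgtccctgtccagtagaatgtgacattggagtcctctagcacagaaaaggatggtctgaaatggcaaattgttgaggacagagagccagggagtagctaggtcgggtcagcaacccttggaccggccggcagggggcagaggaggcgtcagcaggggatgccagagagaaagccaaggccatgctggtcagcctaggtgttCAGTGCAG
Cldn1 LLC-NR: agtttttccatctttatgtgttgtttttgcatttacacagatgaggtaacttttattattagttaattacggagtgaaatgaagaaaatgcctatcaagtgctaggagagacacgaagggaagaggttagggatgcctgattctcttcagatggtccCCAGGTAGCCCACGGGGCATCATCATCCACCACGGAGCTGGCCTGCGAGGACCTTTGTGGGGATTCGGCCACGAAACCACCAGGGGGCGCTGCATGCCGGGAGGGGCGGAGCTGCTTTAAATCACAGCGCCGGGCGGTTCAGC
Cldn1 LLC-R: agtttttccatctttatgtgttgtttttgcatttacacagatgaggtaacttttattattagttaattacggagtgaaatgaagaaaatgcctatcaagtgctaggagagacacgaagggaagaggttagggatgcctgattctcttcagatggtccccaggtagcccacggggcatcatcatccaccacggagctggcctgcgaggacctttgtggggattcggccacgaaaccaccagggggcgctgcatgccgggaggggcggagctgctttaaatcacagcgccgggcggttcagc
Lmln LLC-NR: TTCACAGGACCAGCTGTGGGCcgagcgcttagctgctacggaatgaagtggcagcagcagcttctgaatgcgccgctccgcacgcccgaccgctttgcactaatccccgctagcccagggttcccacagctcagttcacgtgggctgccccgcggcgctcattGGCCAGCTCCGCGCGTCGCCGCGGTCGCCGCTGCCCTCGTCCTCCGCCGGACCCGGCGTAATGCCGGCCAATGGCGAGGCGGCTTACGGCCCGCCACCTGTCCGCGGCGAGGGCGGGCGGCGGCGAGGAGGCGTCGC
Lmln LLC-R: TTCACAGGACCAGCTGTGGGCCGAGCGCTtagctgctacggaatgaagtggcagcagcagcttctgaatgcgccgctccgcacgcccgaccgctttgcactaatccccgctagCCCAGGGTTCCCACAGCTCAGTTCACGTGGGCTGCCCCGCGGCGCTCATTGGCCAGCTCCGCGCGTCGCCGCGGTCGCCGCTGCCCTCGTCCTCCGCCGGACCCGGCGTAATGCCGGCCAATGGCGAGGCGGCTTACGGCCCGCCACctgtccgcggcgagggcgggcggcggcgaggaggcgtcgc

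In LLC-NR, H3K4me3 peaks covered 85 bases of the Ropn1 window, 147 of the Mfi2 window and 143 of the Cldn1 window. In LLC-R they covered 1 base, 8 bases and 0 bases. The CpG-rich Lmln window, with 41 CpG, had 158 covered bases in LLC-NR against 176 in LLC-R. The first bases of the Lmln window were inside a peak in both lines, whereas the Cldn1 window was bare in LLC-R. The whole promoter of Cldn1, which is longer than the window, held 5 H3K4me3 peaks in LLC-NR against 4 in LLC-R. That of Lmln held equal numbers of H3K4me3 peaks in both lines, so its covered bases do not show a gain in number.

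Over the whole segment, H3K4me3 was furthest below its LLC-NR share and H3K9ac was nearest to it. H3K4me3 had 46502 peaks in LLC-NR against 35162 in LLC-R, 0.819% (0.812% to 0.826%) and 0.621% (0.615% to 0.628%) of the library, a share ratio of -0.40 (-0.42 to -0.38). H3K9ac had 63646 and 53010 peaks, 0.745% and 0.675%, with a share ratio of -0.14 (-0.16 to -0.13). For both active marks, the number itself was smaller in LLC-R. For H3K9ac this was also so on the rest of chromosome 16, with 251203 peaks in LLC-NR against 230333 in LLC-R.

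The other 2 marks were lower by share but not by number. H3K27me3 had 56460 peaks in LLC-NR against 60527 in LLC-R, 0.779% (0.773% to 0.786%) and 0.665% (0.660% to 0.670%) of the library, with a share ratio of -0.23 (-0.25 to -0.21). H3K36me3 had 51976 and 58002 peaks, 0.808% and 0.663%, with a share ratio of -0.29 (-0.30 to -0.27). On the rest of chromosome 16 the share ratios were 0.032, -0.0031, 0.12 and 0.092 for H3K4me3, H3K9ac, H3K27me3 and H3K36me3. The segment minus the rest of the chromosome was -0.43, -0.14, -0.35 and -0.38 log2 units in the same order.

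Among 2298 other windows of 16 Mb, placed at steps of 1 Mb along the autosomes and chromosome X, none was lower than the segment for any mark. The lowest of them was at -0.20 for H3K4me3, on chromosome 19 from 0 to 16 Mb. It was at -0.10 for H3K9ac on chromosome 15, -0.16 for H3K27me3 on chromosome 12 and -0.21 for H3K36me3 on chromosome 1. The lowest other window thus lay on a different chromosome for each mark. The segment was chosen for this contrast, and the windows overlap each other, so the comparison is a description.

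The next question was where the low values begin and end. A step was located on each side by least squares on the mean share ratio of 4 marks in windows of 100 kb. The left step was at 20.9 Mb, from a mean of 0.020 to -0.31, and the right step was at 35.6 Mb, from -0.25 to 0.032. In windows of 10 kb, chosen after the first result was seen, the steps were at 20.95 and 35.55 Mb. Each mark alone placed the right step between 35.5 and 35.7 Mb. H3K4me3 and H3K9ac alone gave the left step at 20.9 Mb as well, while H3K27me3 gave 20.7 Mb and H3K36me3 gave 21.5 Mb.

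**Figure D1:**
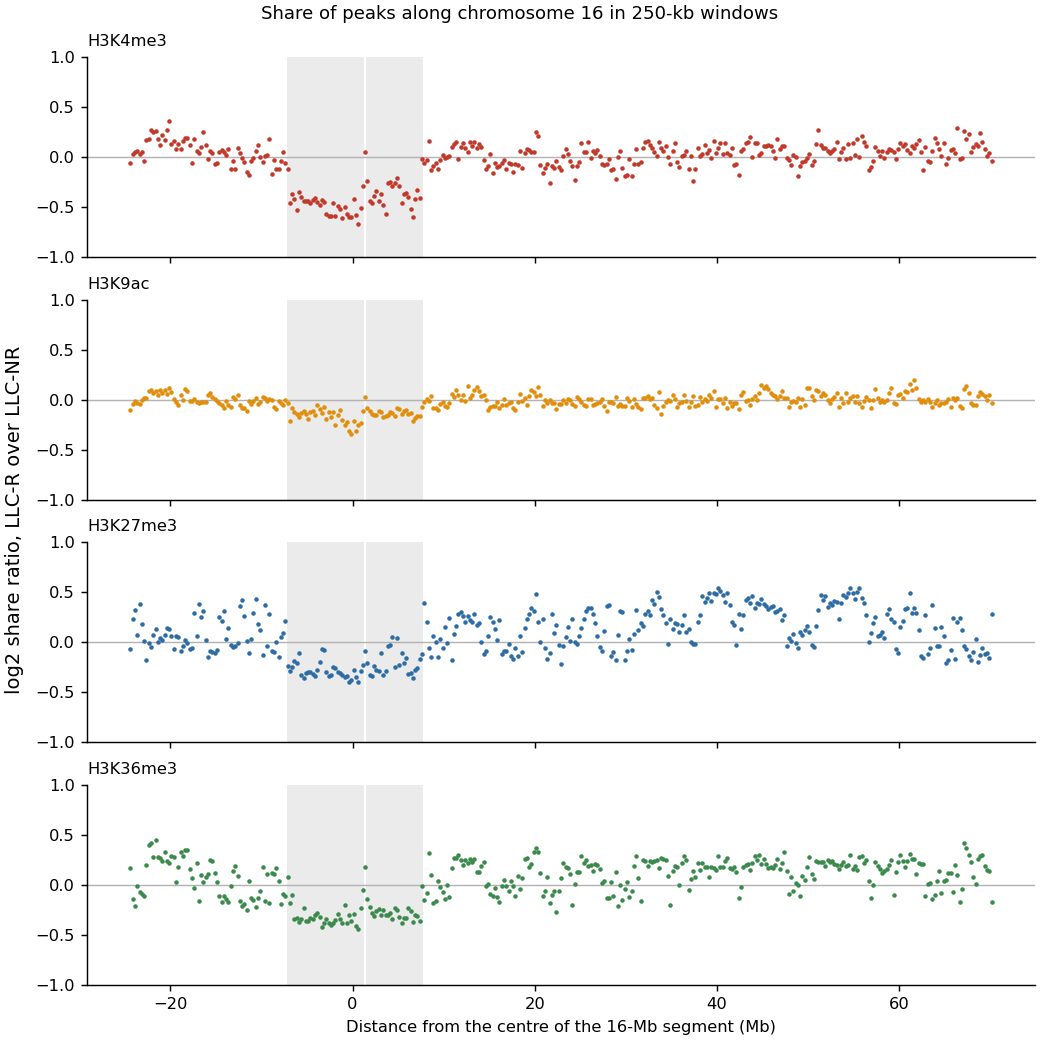
Share ratio of LLC-R over LLC-NR (log2) for each mark in 250-kb windows along chromosome 16, against the distance in Mb from the centre of the 16-Mb segment, with grey for the located low part on either side of the interruption. Over the whole grey area the share ratio runs from -0.44 for H3K4me3 to -0.16 for H3K9ac. For each mark, single windows inside it reach the level of some windows outside.

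The stretches of 300 kb on either side of the left step of 20.95 Mb show how abrupt it was. H3K4me3 had 665 peaks in LLC-NR against 645 in LLC-R to the left of it, and 648 and 464 peaks to the right. Its share ratio went from -0.040 (-0.20 to 0.12) to -0.48 (-0.65 to -0.31), and the intervals do not overlap. H3K9ac went from 0.011 to -0.22, H3K27me3 from -0.090 to -0.29 and H3K36me3 from 0.048 to -0.18. For these 3 marks the intervals of the left and right stretches overlap.

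To the left of the right step of 35.55 Mb, H3K4me3 had 881 peaks in LLC-NR against 663 in LLC-R, and to the right of it 659 and 661 peaks. The LLC-R library thus held nearly equal numbers on both sides while the LLC-NR library did not. The share ratio of H3K4me3 went from -0.41 (-0.55 to -0.26) to 0.0089 (-0.15 to 0.16). H3K36me3 went from -0.38 (-0.50 to -0.26) to 0.00065 (-0.13 to 0.13), H3K27me3 from -0.19 to 0.082 and H3K9ac from -0.18 to -0.043. At the left step the opposite held, with near equal H3K4me3 numbers on both sides in LLC-NR and a smaller number inside in LLC-R.

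The low stretch was interrupted once. A penalised segmentation of the chromosome, with the number of steps free, set apart 5 windows of 100 kb from 29.1 to 29.6 Mb with a mean share ratio of -0.047. In windows of 10 kb the interruption ran from 29.03 to 29.62 Mb. Over 0.5 Mb, H3K4me3 had 1061 peaks in LLC-NR against 991 in LLC-R, a share ratio of -0.094 (-0.22 to 0.031). H3K9ac was at -0.0098 (-0.11 to 0.089), H3K27me3 at -0.14 (-0.24 to -0.044) and H3K36me3 at 0.054 (-0.054 to 0.16). All but H3K27me3 had 0 inside the interval there. H3K27me3 alone was nearer to 0 in a stretch kept in the low part, at -0.043 from 31.8 to 33.1 Mb.

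**Figure D2:**
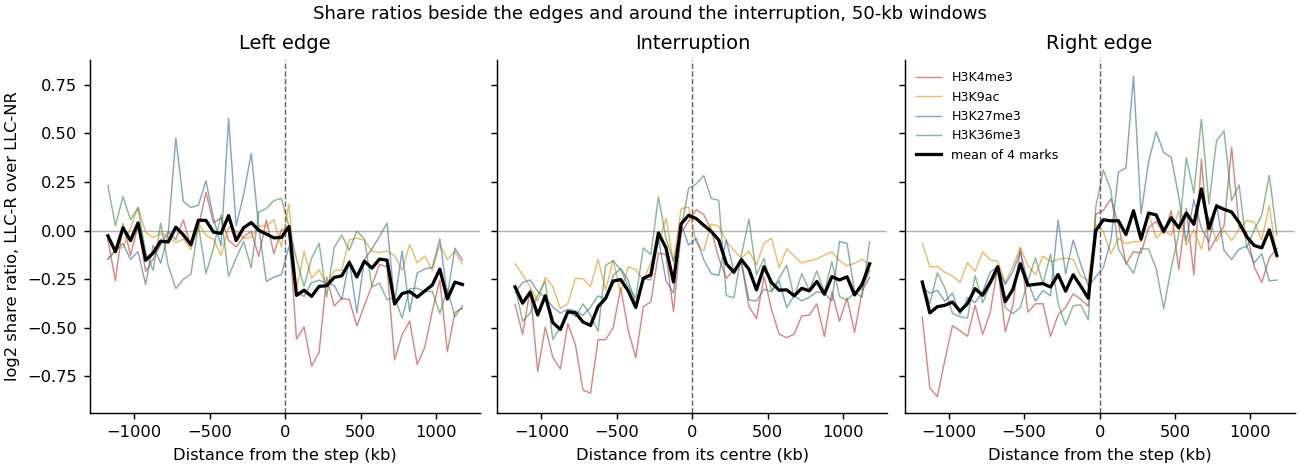
Share ratio (log2) in 50-kb windows against the distance in kb from the left edge, from the centre of the interruption and from the right edge, with thin lines for the 4 marks and a thick line for their mean. The mean lies around 0 outside both edges, with single windows from -0.15 on the left to 0.21 on the right, and near 0 at the centre of the interruption. It lies below 0 in most windows between them.

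With both edges and the interruption located, the 16 Mb divide into a low part of 14.2 Mb, the interruption of 0.5 Mb, a left margin of 0.9 Mb and a right margin of 0.4 Mb. These parts were drawn after the profile was seen. In the low part the share ratio was -0.44 (-0.46 to -0.42) for H3K4me3, -0.16 (-0.17 to -0.14) for H3K9ac, -0.26 (-0.27 to -0.24) for H3K27me3 and -0.31 (-0.33 to -0.29) for H3K36me3. As changes in the share, these are -26.3%, -10.3%, -16.3% and -19.5%. The left margin was at -0.019 (-0.10 to 0.067) for H3K4me3 and the right margin at -0.012 (-0.14 to 0.12). H3K27me3 was at 0.21 (0.098 to 0.33) in the right margin, above its own level on the rest of the chromosome.

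The low part was not at 1 level. The segmentation gave 5 stretches in it, with a mean over the marks of -0.28 from 20.9 to 25.1 Mb, -0.36 from 25.1 to 29.1 Mb, -0.27 from 29.6 to 31.8 Mb, -0.17 from 31.8 to 33.1 Mb and -0.28 from 33.1 to 35.6 Mb. H3K4me3 was lowest, at -0.55, in the stretch just left of the interruption. The shallowest stretch, which holds Pak2 and Tfrc, had H3K27me3 at -0.043 while H3K36me3 stayed at -0.27. The right side of the low part was also richer in genes, with 10.2 protein-coding TSS per Mb against 5.61 left of the interruption.

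The numbers of peaks per 10-kb region show the level in each library. In the low part, LLC-NR held from 2 to 45 H3K4me3 peaks per region with a median of 30, and LLC-R from 1 to 41 with a median of 22. On the rest of chromosome 16 the median was 20 in both lines. LLC-R in the low part was thus close to the level of the rest of the chromosome, and LLC-NR was above it.

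For H3K9ac LLC-NR was also above LLC-R in the low part, and for H3K27me3 and H3K36me3 LLC-R was above LLC-NR. For H3K9ac the medians were 42 in LLC-NR against 34 in LLC-R in the low part, against 33 and 30 on the rest of the chromosome. H3K27me3 had medians of 38 and 39 in the low part and of 25 and 36 on the rest. H3K36me3 had medians of 34 and 37 in the low part and of 23 and 35 on the rest. In LLC-NR each mark was denser in the low part than on the rest, and in LLC-R this difference was smaller for each mark. In the interruption, LLC-NR had medians of 22 peaks for H3K4me3, 36 for H3K9ac, 35 for H3K27me3 and 24 for H3K36me3, each below its median in the low part.

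**Figure D3:**
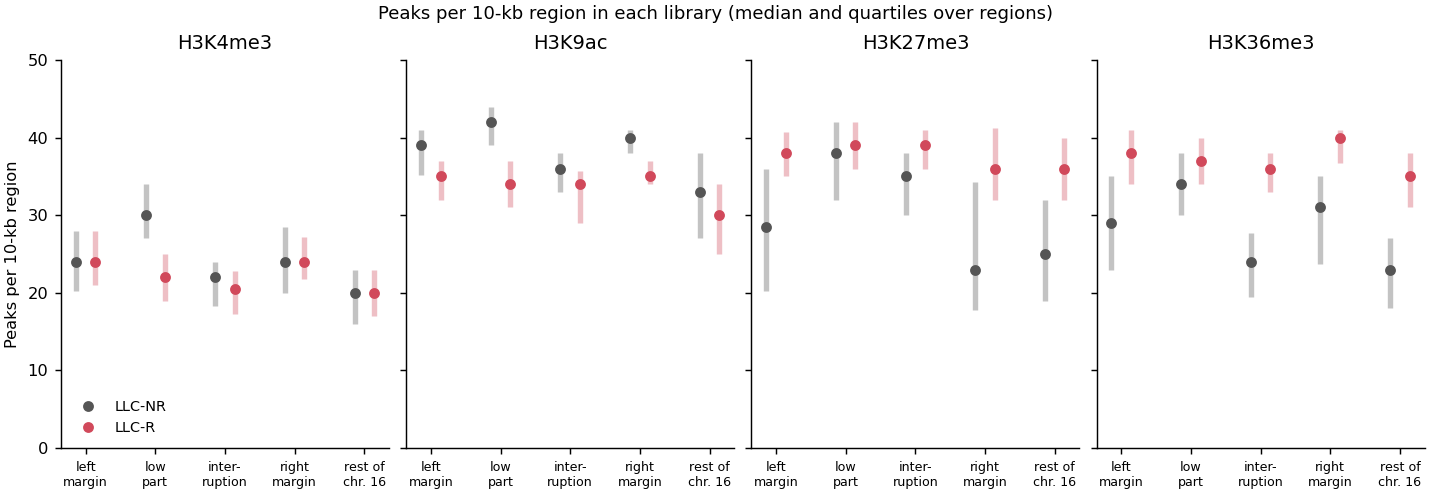
Peaks per 10-kb region (linear scale) in each of the 8 libraries for the parts of the segment and the rest of chromosome 16, with points for the median over regions and bars for the quartiles. For H3K4me3, LLC-NR stands at 30 in the low part against 20 to 24 elsewhere, while LLC-R stays between 20 and 24 throughout.

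The segment is richer in G+C than the rest of the chromosome, with 43.3% against 40.5%. In each quartile of G+C content of the chromosome, and for each of the 4 marks, the low part had a lower share ratio than the rest. In the quartile of lowest G+C content, H3K4me3 had 30.4 peaks per region in LLC-NR against 20.1 in LLC-R in the low part, against 19.8 and 20.1 on the rest. The share ratio was -0.59 there, and -0.39 in the quartile of highest G+C content.

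For each mark, the low part had a lower median share ratio than windows of like density, whether density was read in LLC-NR or in LLC-R. No 10-kb region of the segment held more than 48 peaks. The share ratio was set beside that of 100-kb windows of the other autosomes whose number of LLC-NR peaks was between the lower and upper quartiles of the windows of the low part. Such windows had a median of -0.072 for H3K4me3 and -0.012 for H3K9ac, where the low part had -0.45 and -0.14. They had -0.17 for H3K27me3 and -0.18 for H3K36me3, where the low part had -0.30 and -0.31. Windows with a like number of LLC-R peaks instead had medians of 0.0045 for H3K4me3, -0.0041 for H3K9ac, -0.025 for H3K27me3 and 0.025 for H3K36me3. Of the windows of like LLC-NR density, 0.0990% were at or below the median of the low part for H3K4me3, 0.846% for H3K9ac, 1.24% for H3K27me3 and 2.83% for H3K36me3. By LLC-R density these were 0.0236%, 0.902% and 0.867% for the first 3, and 96 of 8007 windows for H3K36me3. For each mark, the LLC-NR range lay above the median number of peaks in windows of the other autosomes, and the LLC-R range held it. The LLC-NR number also enters the share ratio as its denominator. No other range of density was compared, so how the share ratio moves with density was not measured. The part of density in the result was not tested. No input library was used here, so that a change in mark per nucleosome and a change in the amount of DNA cannot be told apart.

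Low values were also counted region by region. A region was called when its share was at least 1.2-fold lower in LLC-R, among regions with at least 10 peaks of the mark in both libraries together. Of the segment's regions, 1098 of 1594 (68.9%) were called for H3K4me3, against 17.6% of the genome. For H3K9ac, 355 of 1598 (22.2%) were called against 6.11%, for H3K27me3 782 of 1600 (48.9%) against 12.2%, and for H3K36me3 927 of 1598 (58.0%) against 14.5%. Within the low part, 75.2% of regions were called for H3K4me3, 24.0% for H3K9ac, 53.1% for H3K27me3 and 62.7% for H3K36me3. The contrast is that of the choice of the segment, and these shares describe how many regions had it.

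Lower in all 4 marks at once were 998 of 1594 regions (62.6%), against 8.32% of the genome and 250 of 7801 (3.20%) on the rest of chromosome 16. Of these, 983 lay in the low part, 5 in the left margin, 7 in the interruption and 3 in the right margin. Higher in all 4 marks were 4 regions of the segment, none of them among the 1414 of the low part, and 1187 of 7801 regions on the rest of the chromosome.

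Promoters, gene bodies and intergenic regions were compared next, since the 4 marks differ in where they lie along genes. Intergenic regions had the lowest values relative to the rest of chromosome 16 for each mark. For H3K4me3, the segment minus the rest was -0.51 (-0.55 to -0.48) in intergenic regions, -0.38 (-0.41 to -0.35) in gene bodies and -0.17 (-0.34 to 0.0044) in promoters, taken as the 1.5 kb that begin 1 kb before the TSS. The interval of promoters alone reached 0. It rests on 769 peaks in LLC-NR against 649 in LLC-R.

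H3K36me3, the mark of transcribed gene bodies, was at -0.45 (-0.48 to -0.42) in intergenic regions and at -0.27 (-0.30 to -0.24) in gene bodies. H3K27me3 was at -0.42 (-0.44 to -0.39) in intergenic regions, -0.32 (-0.35 to -0.29) in gene bodies and -0.30 (-0.47 to -0.13) in promoters. H3K9ac was at -0.17, -0.11 and -0.085 in the same order, and 0 was within the interval of promoters (-0.25 to 0.079). In H3K36me3 promoters the segment minus the rest was -0.26 (-0.45 to -0.073), while the share ratio in the segment itself was 0.0045 (-0.16 to 0.17). Each mark was lower in gene bodies and in intergenic regions. Intergenic regions were 698 of the 1600 regions.

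**Figure D4:**
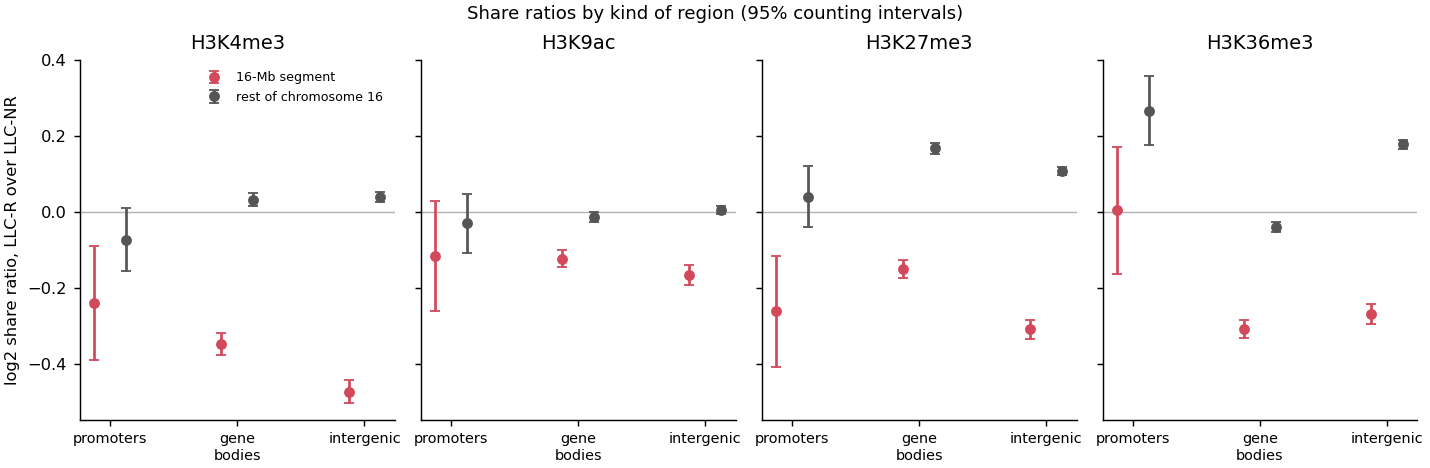
Share ratio (log2) of promoters, gene bodies and intergenic regions for each mark, in the 16-Mb segment and on the rest of chromosome 16, with bars for 95% counting intervals. In gene bodies and intergenic regions the segment lies below the rest with intervals that do not overlap, and for H3K4me3 the gap widens from promoters (-0.17) to intergenic regions (-0.51).

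Peaks of both lines were matched where midpoints lay within 73 bp of each other. In the segment, 41.2% (40.8% to 41.7%) of the H3K4me3 peaks of LLC-NR had a match in LLC-R, against 40.4% (40.2% to 40.6%) on the rest of the chromosome. In the other direction, 54.5% (54.0% to 55.0%) of LLC-R peaks had a match in LLC-NR, against 39.6% (39.4% to 39.9%). The same asymmetry held for the other marks, with 73.2% against 62.3% of LLC-R peaks matched for H3K9ac, 65.2% against 49.3% for H3K27me3 and 59.7% against 44.7% for H3K36me3. In the segment LLC-NR had more peaks than LLC-R for H3K4me3 and H3K9ac, and fewer for H3K27me3 and H3K36me3. The number of matched peaks in the segment was the same from either side, 19168 for H3K4me3. The LLC-R percentages thus follow from those of LLC-NR and the numbers of peaks. Their excess over the rest of the chromosome largely restates the contrast on which the segment was picked. The part of density in the matches was not tested.

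Distances between neighbouring peaks were longer in LLC-R for the active marks and shorter for the other 2, in the low part and on the rest of the chromosome. The median distance between H3K4me3 peaks in the low part was 271 bp in LLC-NR and 349 bp in LLC-R, against 361 and 363 bp on the rest of the chromosome. Distances of 1 kb or more made up 1.53% in LLC-NR and 6.05% in LLC-R, against 8.27% and 7.50%. In the interruption the medians were 343 and 376 bp. In the low part H3K9ac had medians of 220 bp in LLC-NR against 253 bp in LLC-R, H3K27me3 of 233 against 229.5 bp and H3K36me3 of 249 against 238 bp. On the rest of the chromosome these were 249 against 268 bp, 287 against 237 bp and 310 against 244 bp. The shortening for H3K27me3 and H3K36me3 was thus larger outside the segment than in the low part.

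The segment holds the TSS of 139 of 22367 protein-coding genes of GENCODE vM1, with 107 in the low part, 21 in the left margin, 4 in the interruption and 7 in the right margin. Promoters are short and hold few peaks, so the unscaled number was compared. Fewer H3K4me3 peaks in LLC-R were found in 76 of 139 promoters (54.7%), against 43.5% of all promoters. Fewer H3K9ac peaks were found in 86 (61.9%), against 50.5%. For H3K27me3 it was 43 (30.9%) against 15%, and for H3K36me3 15 (10.8%) against 5.77%. Neighbouring promoters can overlap and share peaks, and the contrast is that of the choice of the segment. These shares are therefore a description. The mean promoter of the low part held 5.85 ± 1.45 (SD across 107 promoters) H3K4me3 peaks in LLC-NR against 4.79 ± 1.65 in LLC-R. Within the low part, fewer peaks in LLC-R were found in 59.8% of promoters for H3K4me3 and in 65.4% for H3K9ac.

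Gene bodies, from the end of the promoter to the end of the gene, hold more peaks and were compared by share. At least 1.2-fold lower were 72 of 135 bodies of the segment (53.3%) for H3K4me3 against 10.2% of all bodies, and 12 of 135 (8.89%) for H3K9ac against 3.99%. For H3K27me3 they were 44 of 135 (32.6%) against 10.7%, and for H3K36me3 83 of 134 (61.9%) against 31.3%. In the low part the median body was at -0.35 for H3K4me3, -0.13 for H3K9ac, -0.22 for H3K27me3 and -0.37 for H3K36me3, where the medians over all bodies of the genome were 0.0045, -0.0062, 0.086 and -0.13. Of the 104 bodies measured there, 101 had a negative value for H3K4me3. The 3 others are Sema5b, Gp5 and Fam43a, named after their values were seen. Of the bodies of the low part, 67.3% were called for H3K4me3, 11.5% for H3K9ac, 39.4% for H3K27me3 and 69.2% for H3K36me3.

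**Figure D5:**
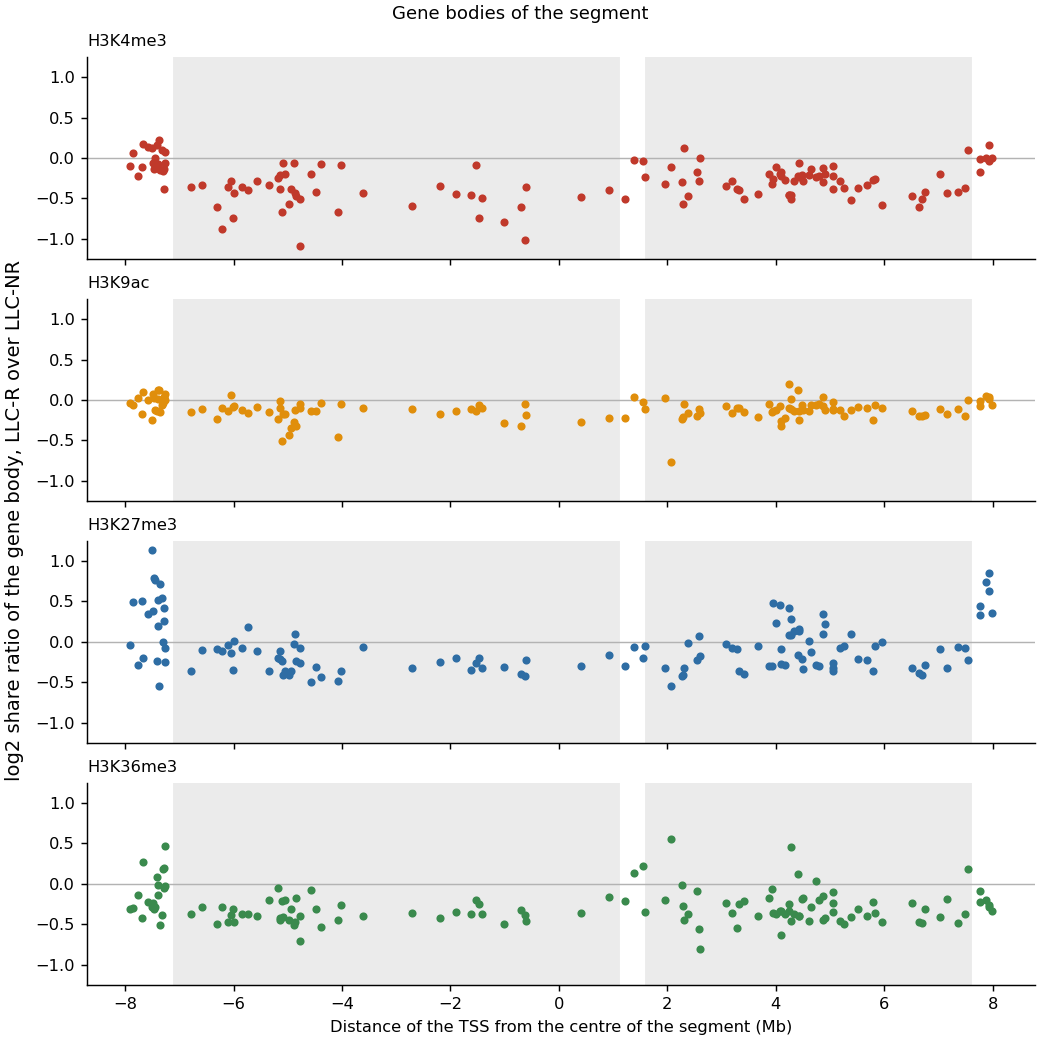
Share ratio (log2) of the body of each protein-coding gene of the segment, 1 point per gene, against the distance in Mb of its TSS from the centre of the segment, with grey for the low part. H3K4me3 lies below 0 in 101 of 104 bodies of the low part, and H3K27me3 ranges from -0.55 to 0.48 there and up to 1.14 in the left margin.

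The long genes give the steadiest values because they hold many peaks. Lpp, which encodes a LIM domain protein of focal adhesions, spans chr16:24393436-24992662 on the plus strand, and its body held 1800 H3K4me3 peaks in LLC-NR against 1325 in LLC-R. Its share ratios were -0.44 for H3K4me3, -0.094 for H3K9ac, -0.067 for H3K27me3 and -0.40 for H3K36me3. Kalrn, the longest gene of the segment, encodes kalirin, known for its role in the dendritic spines of neurons, and held 1554 and 1116 H3K4me3 peaks. It was at -0.47 for H3K4me3, -0.14 for H3K9ac, -0.32 for H3K27me3 and -0.24 for H3K36me3. Both genes were lower in all 4 marks, but H3K27me3 was nearly level over Lpp and H3K36me3 was nearer to 0 over Kalrn than over Lpp.

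All 11 genes of the development list lie in the segment, 9 of them in the low part. Among these 9 promoters, H3K4me3 peaks in LLC-R were fewer at 6, equal in number at 2 and more at 1, where 59.8% of all promoters of the low part had fewer. Hes1, a repressor downstream of Notch, had 8 H3K4me3 peaks at its promoter in LLC-NR against 7 in LLC-R, and 7 and 4 H3K9ac peaks. Igf2bp2, which encodes a binding protein of Igf2 mRNA, had 7 and 4 H3K4me3 peaks. Bcl6, a repressor of germinal center B cells, had 6 and 6 peaks of both active marks.

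Of 8 bodies of development genes measured in the low part, 6 were called for H3K4me3, 2 for H3K9ac, 5 for H3K27me3 and 6 for H3K36me3. Among all bodies of the low part the called were 67.3%, 11.5%, 39.4% and 69.2%, so that the list was near them for H3K4me3 and H3K36me3. Fgf12, an intracellular member of the fibroblast growth factor family, had 646 and 460 H3K4me3 peaks over its body, a share ratio of -0.49. Trp63, which encodes the epithelial regulator p63, was at -0.35 for H3K4me3 and -0.42 for H3K36me3. Hes1 has a short body of 2.91 kb, and its value of -0.77 for H3K9ac rests on 13 and 7 peaks.

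The 7 genes for plasma proteins made by liver and for the adipokine adiponectin lie together in the left side of the low part. H3K4me3 peaks were fewer in LLC-R in all 7 promoters, while H3K9ac was fewer in 2, the same in 4 and more in 1. Among all promoters of the low part, 59.8% had fewer H3K4me3 peaks and 65.4% fewer H3K9ac peaks. Ahsg, which encodes fetuin-A, had 5 and 3 H3K4me3 peaks, and its neighbour Fetub had 5 and 2. Kng2, one of the kininogen genes, had 2 and 0. Adipoq had 6 and 4, and Masp1, a protease of the lectin pathway of complement, had 6 and 5. The differences were of 1 to 3 peaks in each promoter.

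Over the bodies of these 7 genes, the median share ratio was -0.43 for H3K4me3, -0.32 for H3K9ac, -0.36 for H3K27me3 and -0.31 for H3K36me3. The H3K4me3, H3K9ac and H3K27me3 medians were below those of all bodies of the low part, and the H3K36me3 median was above. Left of the interruption, where all 7 genes lie, the medians of all bodies were -0.41, -0.14, -0.24 and -0.38 in the same order of marks. For H3K4me3 the 7 genes were thus near their neighbours. For the body of Kng2, the numbers were 85 in LLC-NR against 57 in LLC-R for H3K4me3, 115 against 78 for H3K9ac, 129 against 122 for H3K27me3, and 103 against 103 for H3K36me3.

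Of the 10 genes of epithelium and adhesion, 9 lie in the low part, where 3 promoters held fewer H3K4me3 peaks, 4 the same number and 2 more. H3K9ac was fewer in 6. Among all promoters of the low part these shares were 59.8% for H3K4me3 and 65.4% for H3K9ac. Itgb5, an integrin subunit that pairs with alpha V, had 8 and 4 H3K4me3 peaks, and Cldn16, a claudin of the kidney, had 6 and 3. Muc4, a membrane mucin, had 4 and 5. Dlg1, a scaffold of cell polarity, had 7 and 7, although its body was at -0.45. The median body was at -0.27 for H3K4me3 and -0.36 for H3K36me3.

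All 5 kinase and motility genes in the segment lie in the low part, and all 5 promoters held fewer H3K9ac peaks in LLC-R, as did 65.4% of all promoters of the low part. Tnk2, which encodes the kinase ACK, had 8 and 6 H3K4me3 peaks and 7 and 6 H3K9ac peaks. Pak2, a kinase activated by Rac and Cdc42, had 7 and 4 H3K9ac peaks. Its body was the list's highest for H3K27me3, with 127 peaks in LLC-NR against 218 in LLC-R, a share ratio of 0.45. Mylk, the myosin light chain kinase, was at -0.42 for H3K4me3 and -0.28 for H3K27me3.

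Of 13 housekeeping genes in the segment, 7 lie in the low part. There, H3K4me3 was fewer in 2 promoters, the same in 3 and more in 2, and H3K9ac was fewer in 5, against 59.8% and 65.4% of promoters with fewer peaks in the whole low part. Eif4a2, an RNA helicase of translation initiation, had 6 and 6 H3K4me3 peaks, and Rpl35a, a protein of the large ribosomal subunit, had 8 and 5. Of the 7 bodies, 6 were called for H3K36me3 and 1 for H3K27me3, against 69.2% and 39.4% of all bodies of the low part. The median was -0.40 for H3K36me3 and 0.0010 for H3K27me3. Umps, an enzyme of pyrimidine synthesis, had 48 and 32 H3K4me3 peaks and 35 and 44 H3K27me3 peaks over its body. H3K27me3 over these bodies was thus close to the level of the library, in contrast to the bodies of the plasma protein genes. It was below that of the list's genes in the left margin. There, Ap2m1, Psmd2, Eif4g1, Alg3 and Polr2h were at 0.79, 0.72, 0.55, 0.52 and 0.26. Opa1, in the interruption, was at -0.055.

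Gene bodies of the margins had median H3K4me3 values of -0.060 on the left and -0.0096 on the right, and most had H3K27me3 values above 0. On the left the H3K4me3 values ranged from -0.38, in Polr2h, a subunit of the RNA polymerases, to 0.23. Ap2m1, an adaptor of clathrin-coated vesicles, and Psmd2, a subunit of the proteasome, lie in the left margin and had H3K27me3 share ratios of 0.79 and 0.72. Their H3K4me3 values were both -0.14. In the right margin, Parp9 and Parp14, interferon-induced members of the PARP family, had H3K27me3 at 0.86 and 0.74 and H3K4me3 at 0.16 and 0.0045. In the right margin, 6 of 6 bodies were positive for H3K27me3 and in the left margin the median of 21 bodies was 0.34, against -0.22 in the low part. On the rest of chromosome 16 the median was 0.26. Below 0 were 8 of 21 bodies in the left margin, 136 of 434 on the rest of the chromosome and 7863 of 18450 in the genome. Positive H3K27me3 values were thus not particular to the margins.

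Of 6 genes of blood and immunity in the segment, only Il1rap and Tfrc lie in the low part. Il1rap, the accessory chain of the interleukin-1 receptor, had 464 and 328 H3K4me3 peaks over its body, a share ratio of -0.50. Tfrc, the transferrin receptor, had 8 and 5 H3K4me3 peaks and 8 and 6 H3K9ac peaks at its promoter. Thpo, which encodes thrombopoietin, lies just outside the left edge and had 6 and 6 peaks of each. None of the 4 annotated genes of the stefin cluster lies in the segment.

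The genes nearest to the edges are described next. Chrd, a BMP antagonist, Clcn2 and Thpo are the nearest to the left of the left edge. Over their bodies the H3K4me3 share ratio was -0.057, -0.14 and 0.072. Each had 1 share ratio or more above 0, as had some bodies of the low part, such as Pak2 for H3K27me3. Ephb3, an ephrin receptor, and Vps8, of endosomal sorting, are the first measured bodies to the right of it, and all 4 marks were negative over both. Vps8 was at -0.33 for H3K4me3, -0.11 for H3K9ac, -0.097 for H3K27me3 and -0.29 for H3K36me3, from 551 and 437 H3K4me3 peaks. No protein-coding gene spans the left step.

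The right step lies inside Sema5b, which encodes a transmembrane semaphorin and spans chr16:35541231-35664818 on the plus strand. To the right of 35.55 Mb, 115 kb of the gene held 235 H3K4me3 peaks in LLC-NR against 254 in LLC-R, a share ratio of 0.12 (-0.14 to 0.37). H3K36me3 was at 0.23 (0.0052 to 0.46) there, but H3K27me3 was at -0.22 (-0.40 to -0.036). The 8.77 kb to the left of the step held 22 and 21 H3K4me3 peaks, too few to show a difference. The end of the interruption lies inside Opa1, which encodes a GTPase of mitochondrial fusion and spans chr16:29579420-29654970. H3K4me3 was at -0.11 (-0.50 to 0.29) in the 40.6 kb of the gene inside the interruption and at -0.36 (-0.79 to 0.060) in the 35.0 kb beyond it, and the intervals overlap.

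At the extremes of the promoters, Ropn1 had 6 H3K4me3 peaks in LLC-NR against 1 in LLC-R, and 7 and 4 H3K9ac peaks. Mfi2 had 6 and 1, and 7 and 6. A tie of 7 promoters follows, each with 6 fewer peaks over H3K4me3, H3K9ac and H3K27me3 together (a change of -6). They are Fam131a, Vps8, Tbccd1, Leprel1, Gm606, Tmem44 and Rnf168, of which the last 4 were named after their values were seen. The largest rises were in Abcc5, with 6 more, Rtp1 and Lmln, with 5 more, and Pigz and Parp9, with 4 more. Among the 3 marks summed, Lmln rose over H3K27me3 alone, with 1 and 6 peaks, and had 5 and 5 H3K4me3 peaks. It also had 1 and 3 H3K36me3 peaks. Ropn1 and Mfi2 lie in the low part, as do Rtp1, Lmln and Pigz, so that promoters of the low part stood at both ends.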

How the data were processed

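Peaks of H3K4me3, H3K9ac, H3K27me3 and H3K36me3 were measured in isografts of LLC-NR and LLC-R by ChIP-seq (8 libraries, 1 for each combination of mark and line). According to the methods and the submitters' processing notes, the authors aligned reads to mm9 with Bowtie 0.12.7, allowed 2 mismatches and discarded reads without a unique position. Peaks were called by the authors for every library on its own with GeneTrack, whose settings are not given in the sources used here. The deposited files hold the start and end positions of peaks and no height, strand or read count. The number of reads behind a single peak is thus unknown, and every value here counts peaks. The depth of the libraries differed between the lines. By the paper's mapping statistics, LLC-R had more uniquely mapped reads for H3K27me3 and H3K36me3, and LLC-NR had more for H3K4me3 and H3K9ac. The part of this depth in the numbers of peaks was not tested. Each peak is 147 bp wide, and no neighbours overlap.

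Peaks were counted by midpoint in regions of 10 kb and windows of 100 kb and divided by the peaks of the library. Edges were located with windows of at least 50 peaks in every library, searching from 10 to 28 Mb and from 28 to 46 Mb. The penalised segmentation had a penalty of 3 times log(n) times the variance and a minimum of 5 windows. Region calls used a 1.2-fold difference and at least 10 peaks. Gene models came from GENCODE vM1 and sequence from NCBIM37, with the TSS shared by most transcripts. Gene bodies of at least 1 kb were measured. The step search and the intervals were tested only on simulated independent Poisson counts, with the same effect for all marks and equal library totals. The real peaks do not overlap and their share ratios differ by mark, so the simulation cannot show how the intervals hold for them. No p-value is given, since 1 library per group allows no test between samples.

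The segment, the gene lists and the rules were chosen with earlier results of these data known. Genes were named when they were on a list of 7 (development, epithelium and adhesion, blood and immunity, plasma proteins, stefins, kinases and motility, housekeeping), among the 3 nearest to each side of an edge, among the 5 promoters with the largest fall or rise, or the longest gene. Intensity of the marks, gene expression and input chromatin were not analysed here. Alternatives covered scaling, promoter peaks, sparse regions, G+C content, bounds, window size, marks, gene set and matching distance. Scripts ran under Python 3.11.15 with pandas 2.3.3, NumPy 2.4.6, SciPy 1.17.1 and, for figures, Matplotlib 3.10.9.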

Additional observations from a re-analysis of the deposited data

How the results depend on the processing

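Of 80 alternative values, 66 moved by less than the counting interval (for edges, by no more than 1 window of 100 kb), 14 moved by more, and 0 reversed in sign. Scaled by the peaks of chromosome 16 outside the segment, the share ratio was -0.43 for H3K4me3, -0.35 for H3K27me3 and -0.38 for H3K36me3. With 1 Mb trimmed from both ends it was -0.44, -0.26 and -0.30, and over the located low part only, an alternative chosen after the data were seen, it was -0.44, -0.26 and -0.31. The left edge was at 20.7 Mb with H3K27me3 alone and at 21.5 Mb with H3K36me3 alone. With midpoints within 30 bp in place of 73 bp, the share of LLC-NR peaks matched in the segment exceeded that of the rest by 5.04 percentage points for H3K9ac, 4.12 for H3K27me3 and 2.84 for H3K36me3, against 3.83, 2.38 and 1.82. The cause of these shifts was not tested. The G+C trend, promoter peaks, sparse regions, gene set and promoter bounds moved no value by more than its interval.

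No paired analysis was possible because each line and mark had 1 library and the labels give no replicate numbers, and leaving out a replicate was not possible for the same reason. A stricter peak threshold was not run, since the files hold no score. No 10-kb region of the segment held more than 48 peaks of a mark, the libraries differ in their number of peaks, and intervals do not stand for variation between tumors.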
